A study of Mus musculus with 4 samples.

Results

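The 10 genes described here encode proteins of the cardiac sarcomere and a cardiac hormone: the troponin subunits Tnni3, Tnnt2 and Tnnc1, the myosin heavy chains Myh6 and Myh7, the myosin light chains Myl2 and Myl7, cardiac alpha-actin Actc1, alpha-actinin Actn2, and the natriuretic peptide Nppa. They were chosen by name, with earlier results of these data known. They are 10 of the 21938 protein-coding genes annotated by GENCODE M21 on chromosomes 1 to 19, X and Y of mm10. Every peak of the 5 Smad1 peak lists was taken that had at least 1 bp within 20 kb of a gene body.

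The GFP-Bry mouse ES cell line, in which GFP reports the mesoderm gene Brachyury, was differentiated as embryoid bodies (EBs), floating clusters of cells that form mesoderm. EBs were dissociated on day 3 and reaggregated for 24 h in vehicle (DMSO) or in 10 µM IWR-1, an inhibitor of canonical Wnt signalling, and were collected on day 4. Smad1 ChIP and input chromatin were sequenced as 1 library each per treatment, which leaves the treatments without replicates and without p-values. Since the lists carry no counts of reads, depth per peak is unknown, and a missing call does not measure how high the signal was.

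Sample labels did not match what the lists held, which bears on each result. All 10466 sites of the list of common DMSO sites are intervals of the QESEQ list that is labelled as the IWR-1 input, and all 10466 overlap a peak of the MACS list that is labelled as the DMSO input. These are called the DMSO QESEQ list (26070 peaks) and the DMSO MACS list (15927 peaks). The list labelled as the IWR-1 ChIP is called the IWR-1 QESEQ list (16261 peaks). The remaining list of 7815 peaks is labelled as the DMSO ChIP, was assigned to IWR-1 by elimination, and is called the second MACS list throughout. MACS gave each peak a score, with a lowest value of 50 in both MACS lists, which is used here to rank peaks within a list.

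Smad1 carries BMP signals to the nucleus, where it binds DNA together with Smad4 and with factors particular to the cell type. BMP signalling promotes the formation of cardiac mesoderm, whereas canonical Wnt signalling acts in opposite directions at early and later stages of cardiac development. The genes described here are turned on late in that sequence, as cardiomyocytes assemble their contractile apparatus, and they are controlled by factors such as Mef2, Srf, Nkx2-5, Gata4 and Tbx5.

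Peaks near the 10 genes lay at 10 distinct places, at 7 of the genes. The middle 100 bp of a called place of 5 of these genes is shown on the plus strand of GRCm38, the assembly behind mm10, to let the sequences under the calls be compared. For Myh6 it is the place inside its own body. The Actc1 sequence is that of its common site, and the others were chosen after the calls had been seen. Capitals mark a searched motif or a run of at least 7 A or 7 T.
Actc1, chr2:114052156-114052255: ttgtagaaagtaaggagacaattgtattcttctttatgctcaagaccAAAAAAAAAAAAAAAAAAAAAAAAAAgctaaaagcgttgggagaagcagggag
Nppa, chr4:147993249-147993348: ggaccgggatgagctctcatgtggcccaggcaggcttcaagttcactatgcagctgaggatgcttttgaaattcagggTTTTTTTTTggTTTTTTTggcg
Myh6, chr14:54942757-54942856: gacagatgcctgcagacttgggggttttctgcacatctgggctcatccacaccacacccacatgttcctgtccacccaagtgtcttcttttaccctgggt
Myl2, chr5:122090059-122090158: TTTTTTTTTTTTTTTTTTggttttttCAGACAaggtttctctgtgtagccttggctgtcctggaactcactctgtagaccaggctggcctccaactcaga
Tnni3, chr7:4542610-4542709: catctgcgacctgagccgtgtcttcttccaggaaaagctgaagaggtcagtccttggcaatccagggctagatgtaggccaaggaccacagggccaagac

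A common DMSO site was found at 1 of the 10 genes, Actc1, against 35.1% of all protein-coding genes. A DMSO MACS peak was found at 2 genes, Actc1 and Nppa (44.2% of all genes), and a DMSO QESEQ peak at 3, Actc1, Nppa and Myl7 (60.2% of all genes). Together, 3 of the 10 genes had a DMSO call of either caller, against 64.3% of all genes. With IWR-1, QESEQ had a call at 6 genes, Tnni3, Myh6, Myh7, Myl2, Myl7 and Nppa, against 47.2% of all genes. The second MACS list had a call at 2, Myh6 and Myh7, at the same place, against 26.8% of all genes. No list had a call at Tnnt2, Tnnc1 or Actn2, and 28.3% of all genes were likewise without a call. Windows widen with gene length, and the median body was 9.39 kb for the 10 genes and 17.4 kb for all protein-coding genes. What gene length contributed to the counts was not tested. Per Mb of the joined windows of the 10 genes there were 7.52 DMSO MACS peaks (4 peaks), against 5.84 per Mb of chromosomes 1 to 19, X and Y. These values were 5.64 and 9.56 for DMSO QESEQ, and 1.88 and 3.84 for common sites. They were 11.3 and 5.97 for IWR-1 QESEQ, and 1.88 and 2.87 for the second MACS list. A window of the same length for every gene was also used. In 20 kb around the start of the main transcript, 3 of the 10 genes had a DMSO call and 49.7% of all genes did. Within 50 kb of the body, 8 of the 10 had one, against 80.9%. When a peak within 20 kb also had to be nearer to the gene than to any other protein-coding gene, 1 of the 10 had one, against 45.5%.

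**Figure D1:**
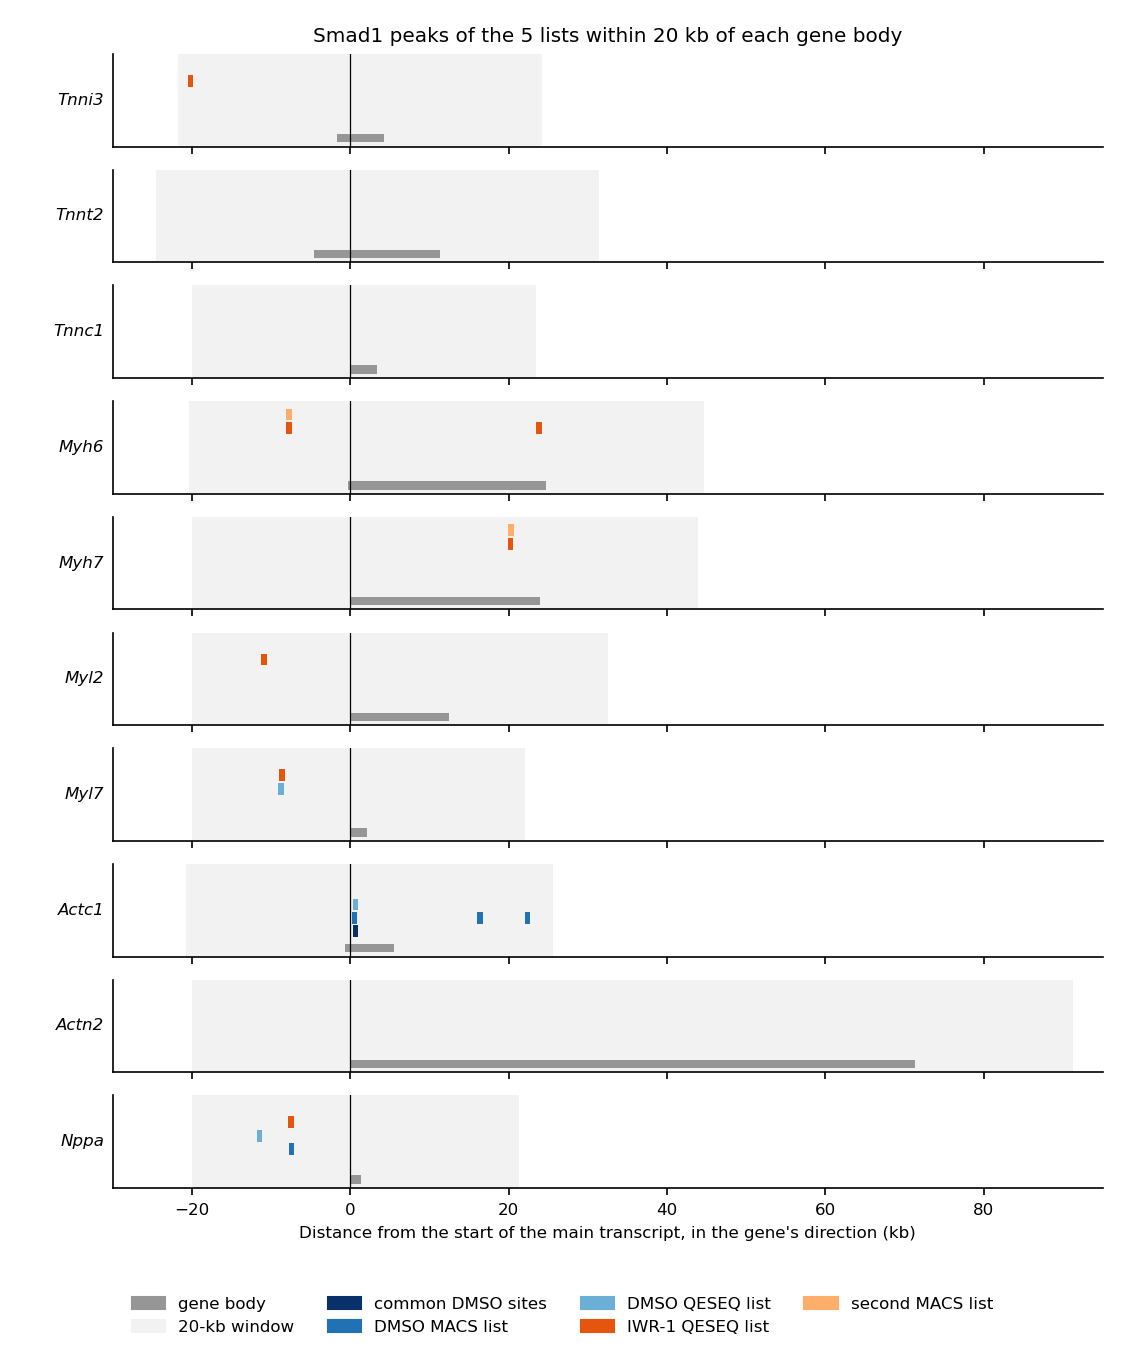
Peaks within 20 kb of each gene body, by distance in kb from the start of the main transcript in the direction of the gene. The grey bar is the gene body, the pale area its window and each colour a list, and peaks are drawn wider than to scale so that they can be seen. Actc1 has DMSO peaks and no IWR-1 peak, Tnni3, Myh6, Myh7 and Myl2 have IWR-1 peaks and no DMSO peak, and 3 genes have none.

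The troponin complex makes contraction depend on calcium, and its 3 genes had 1 call in all. Tnni3, the inhibitory subunit, is a minus-strand gene of chromosome 7, from 4518305 to 4524229. Its single call was an IWR-1 QESEQ peak from 4542376 to 4542944, over intron 3, exon 4 and intron 4 of Syt5, a gene for a synaptotagmin. The peak lay 18.1 kb from the Tnni3 body, just inside the window. A DMSO QESEQ peak from 4545317 to 4546000 lay 21.1 kb away, just outside it. Within the same window lies Tnnt1, the troponin T of slow skeletal muscle. The nearest common site was 95.2 kb away and the nearest peak of the second MACS list 176 kb away. Tnnt2, the tropomyosin-binding subunit, on chromosome 1 from 135836354 to 135852260, had no call, and its nearest was a DMSO QESEQ peak at 34.5 kb. Tnnc1, the calcium-binding subunit, on chromosome 14 from 31208312 to 31211729, had no call either, and a DMSO QESEQ peak at 30.8 kb was the nearest. At these genes, DMSO peaks of QESEQ therefore lay within 50 kb and DMSO peaks of MACS did not.

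Myh6 and Myh7 encode the alpha and beta heavy chains of cardiac myosin and lie side by side on the minus strand of chromosome 14, from 54941921 to 54966927 and from 54970684 to 54994626. No DMSO list had a peak within 20 kb of either gene. The IWR-1 QESEQ list had a peak in intron 34 of Myh7, and the second MACS list had a peak with the same start. This was the single place at the 10 genes with a call in both lists. The score in the second MACS list was 63.8, at percentile 52.8 of that list. The place also lay in the window of Myh6, so it was counted for both genes. QESEQ alone had a further IWR-1 peak from 54942522 to 54943093, in intron 37 of Myh6 near its 3′ end and over exon 4 of the antisense transcript Gm49130. The paralogues share coding sequence, but both places lie in introns of the main transcripts. The sequence under each place was searched in the other gene. Of the 522 words of 51 bp in the Myh6 place, 0 occurred exactly in Myh7, and of the 290 in the Myh7 place, 0 occurred in Myh6. Only exact matches were searched, so this does not show whether reads with mismatches could align to either gene. The nearest DMSO peak of either caller was a QESEQ peak 59.5 kb from Myh6 and 31.8 kb from Myh7.

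The light chains stabilise the lever arm of myosin, Myl2 in ventricular and Myl7 in atrial muscle. Myl2, on chromosome 5 from 122100951 to 122113472, had an IWR-1 QESEQ peak from 122089892 to 122090326 that lay in no annotated gene and was centred 10.8 kb upstream of the transcript start. Of its bases, 75.4% were masked as repeats, whereas the median over all IWR-1 QESEQ peaks, each taken whole, was 34.6%. The IWR-1 QESEQ peaks at Tnni3 and inside Myh6 lay below that median, with 3.69% and 1.05% masked. The nearest DMSO peak of Myl2 was a common site from 122139749 to 122140254, 26.3 kb from the body and over Ccdc63, with a score of 92.3 at percentile 85.1. Neither IWR-1 list called that site. Myl7, on chromosome 11 from 5896637 to 5898782, had a DMSO QESEQ peak and an IWR-1 QESEQ peak upstream of its start, which overlapped each other. Neither MACS list had a peak there.

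Actc1, the actin of the embryonic and adult heart, is a minus-strand gene of chromosome 2, from 114047282 to 114053548, and had the single common DMSO site. The site spanned 114051928 to 114052485, over intron 1 and exon 2, where the coding sequence begins, and was centred 0.681 kb downstream of the transcript start. MACS placed its peak there within intron 1, from 114052073 to 114052537, with a score of 60.4 at percentile 36.9 of the DMSO MACS list. The median score of all common sites was 66.6. MACS alone had further DMSO peaks beyond the 3′ end of Actc1, from 114036204 to 114036755 with a score of 50.8 and from 114030303 to 114030645 with a score of 52.0. These were at percentiles 3.22 and 8.48, close to the lowest score in the list. All 3 places lie within A530058N18Rik, a non-coding transcript of the opposite strand. Neither IWR-1 list had a peak at Actc1, and the nearest was 145 kb away in both. Actc1 was the 1 gene of the 10 with a DMSO call and no call in either IWR-1 list, a class that held 19.7% of all genes. Actn2, which anchors actin at the Z-disc, lies on chromosome 13 from 12269426 to 12340760 and had the longest window, 111 kb, without a call. Its nearest DMSO peak, a common site, was 161 kb away, and 78.6% of all genes had a nearer common site. The second MACS list had a peak 34.1 kb away, and 34.4% of all genes had a nearer peak of that list.

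**Figure D2:**
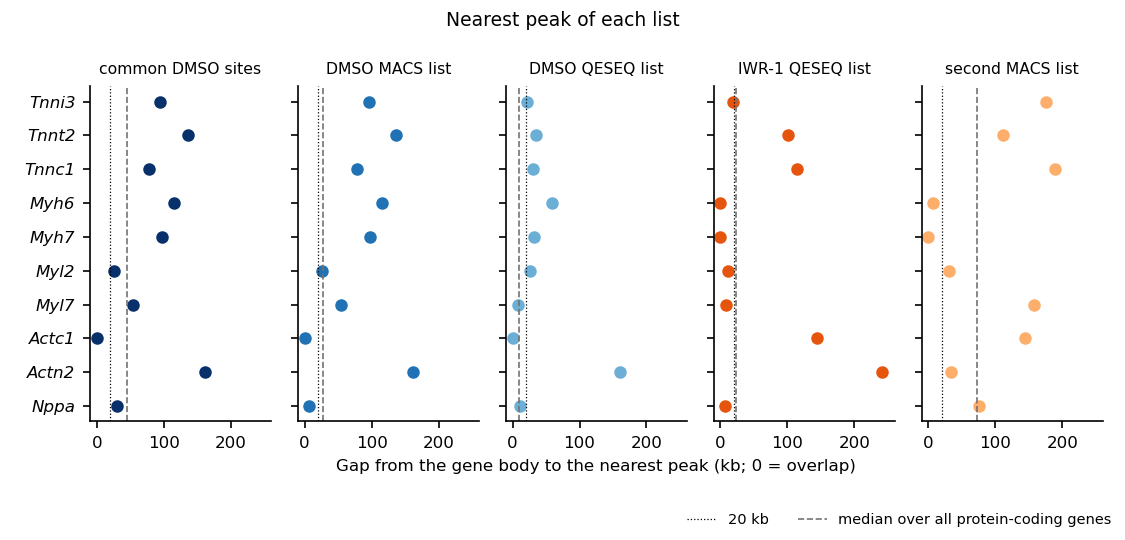
Gap in kb from each gene body to the nearest peak of each list, with 0 for a peak that overlaps the body. The dotted line is 20 kb and the dashed line the median over all 21938 protein-coding genes, which ranges from 10.2 kb for DMSO QESEQ to 72.7 kb for the second MACS list. In the common-site panel, Actc1 is the single gene inside 20 kb.

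Nppa encodes atrial natriuretic peptide and lies on chromosome 4 from 148000722 to 148002079, downstream of its relative Nppb. A DMSO MACS peak from 147993106 to 147993493 lay between the genes, centred 7.42 kb upstream of the Nppa start and nearer to Nppb. Its score was 54.8, at percentile 18.7. The IWR-1 QESEQ list had a peak with the same start, to 147993466, and neither DMSO QESEQ nor the second MACS list had a peak there. QESEQ alone had a DMSO peak from 147988987 to 147989523, 1.78 kb from Nppb and 11.2 kb from Nppa. The nearest common site, from 147969726 to 147970178, was 30.5 kb from Nppa and had no IWR-1 call.

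**Figure D3:**
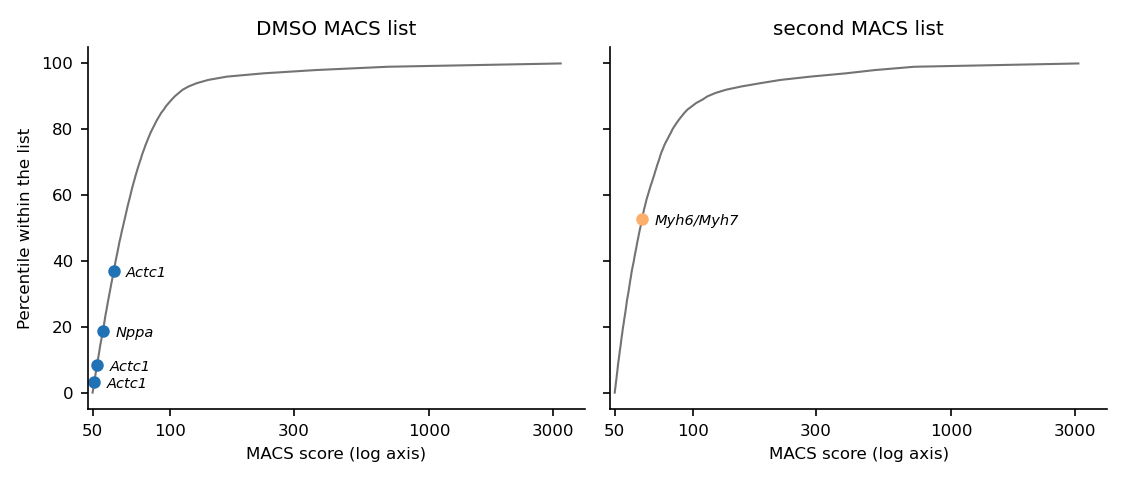
MACS score, on a log axis, against the percentile within the list, for the DMSO MACS list and the second MACS list. Grey curves are all peaks of a list and points are the peaks at the 10 genes. The 4 DMSO points lie between percentiles 3.22 and 36.9, and the point of the second list lies at 52.8.

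The places were then compared by position and sequence. Of the 10 places, 3 overlapped the body of a gene in the list and 1, the Actc1 site, was centred within 1 kb of a transcript start. By treatment, 4 places had DMSO calls alone, 2 had calls with both DMSO and IWR-1, at Myl7 and Nppa, and 4 had calls in the IWR-1 lists alone. Of the 40600 places that the lists form over all chromosomes when joined in the same way, these classes held 51.4%, 24.4% and 24.2%. A run of at least 7 A, on either strand, lay in the central 200 bp of 7 places. Such runs were in 76.0% of all common sites and 51.6% of all IWR-1 QESEQ peaks. The shares were 83.0% for the DMSO MACS list, 63.7% for the DMSO QESEQ list and 66.9% for the second MACS list. The longest runs were 28 bases at Myl2 and at a MACS peak downstream of Actc1, with 26 at the Actc1 common site. In the central 200 bp of the places at Tnni3 and the 3′ end of Myh6, no run of A or T was longer than 4.

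Smad sequences were searched on both strands as GGCGCC and GGAGCC, the GC-rich elements, CAGACA, and the palindrome GTCTAGAC. The central 200 bp of 3 places held a match, GGAGCC at a MACS peak downstream of Actc1 and CAGACA at the Myl2 place and the 3′ end of Myh6. In the central 200 bp of all common sites the shares were 7.82% for GGAGCC and 14.7% for CAGACA, and in that of all IWR-1 QESEQ peaks CAGACA was in 15.9%. Any of the 4 sequences was in the central 200 bp of 22.2% of common sites and 23.9% of IWR-1 QESEQ peaks. Over a whole peak of each place, 6 of the 10 held a match, beside 44.2% of whole common sites and 48.7% of whole IWR-1 QESEQ peaks. The central 200 bp of the Actc1 common site held none of the 4, and the whole site held GGAGCC at 2 positions. Of the TCF/LEF sequences, CTTTGTT was in the central 200 bp of 1 of the 10 places and CTTTGAT of 0, beside 5.56% and 3.45% of all common sites. AAGTGG, a sequence bound by Nkx2-5, was in 2 of the 10, among them the MACS peak farthest downstream of Actc1, and in 9.28% of all common sites. The T-box sequence AGGTGT was in 1, the nearer of those downstream peaks, and in 9.76% of all common sites. The CArG box of Srf, the Mef2 consensus, AGATAA and TGACTCA had no match in the central 200 bp of the 10 places, and they were in 0.936%, 2.14%, 10.0% and 2.92% of all common sites. A match is a description of letters, and its absence says nothing about the factor.

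An IWR-1 QESEQ call and no DMSO call of either caller was found at 4 of the 10 genes, Tnni3, Myh6, Myh7 and Myl2, against 6.44% of all protein-coding genes. With a call in either IWR-1 list, the same 4 genes were in the class, against 7.38% of all genes. This class was formed after the calls had been seen, and Myh6 and Myh7 share a place, so that the 4 genes are 3 loci. The count by QESEQ depended on the window, with 2 genes at 10 kb, against 6.65% of all genes, and 1, Myh6, at 50 kb, against 4.75%. In 20 kb around the transcript start it was 3, against 7.10%, and with peaks nearest to the gene, for both kinds of call, it was 3, against 5.78%. With either IWR-1 list, 50 kb gave 2 genes, Myh6 and Actn2, against 5.44%. Peaks of QESEQ alone made the call at Tnni3 and Myl2. If the second MACS list were DMSO, as it is labelled, Myh6 and Myh7 would have a DMSO call. Tnni3 and Myl2 would then be left in the class, and the share of all genes under that label was not counted. Variation between the 2 ChIP libraries and an effect of IWR-1 cannot be told apart with 1 library per treatment.

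Related genes were counted in the same way. Of 27 other cardiomyocyte genes, 8 had a common DMSO site, as did 6 of 15 skeletal muscle paralogues, 8 of 15 smooth and non-muscle paralogues and 5 of 11 cardiac transcription factors. A DMSO call of either caller was at 17 of the 27, 10 and 12 of the 15 in each paralogue list, and 5 of the 11. An IWR-1 QESEQ call was at 12, 8, 8 and 5 genes of these lists in the same order. An IWR-1 QESEQ call and no DMSO call was at 1, 1, 0 and 0, and a call in either IWR-1 list and no DMSO call at 4, 1, 0 and 0. The difference of the 10 genes from these lists was not tested.

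**Figure D4:**
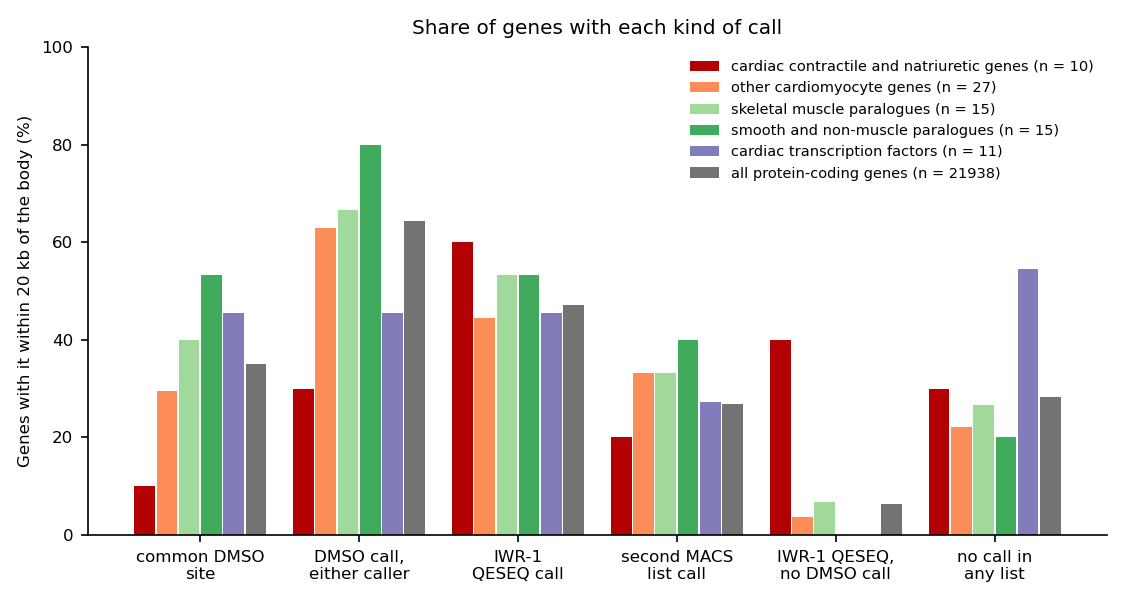
Share of genes, in percent, with each kind of call within 20 kb of the gene body, for the 10 genes, the comparison lists and all protein-coding genes. For the 10 genes, the bars stand at 10.0% for a common DMSO site, 30.0% for a DMSO call and 60.0% for an IWR-1 QESEQ call, each gene being 10 percentage points.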

How the data were processed

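Smad1 ChIP and input reads of each treatment were aligned by the authors to mm10 and peaks were called once per treatment with MACS and QESEQ. The submitters' processing notes name CASAVA 1.8, Bowtie2 2.1.0 and MACS 1.0.1. The deposited lists hold positions and, for MACS, a score per peak. The score was compared within a list only. Positions are given counted from 1. QESEQ starts were read like MACS starts, since 4666 of them equal a DMSO MACS start as written and 38 or fewer do at 1 bp to either side.

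Gene bodies came from GENCODE M21 and sequences and repeat masking from NCBI's GRCm38. The main transcript was the coding transcript with the best principal annotation, the first-numbered. All 10 genes were named, with every common site, DMSO MACS peak and IWR-1 call in their windows. From the comparison lists, genes were named where a common site had a score among the 3 highest. Members and lists were chosen with earlier results of these data known. Alternatives covered the window, the nearest gene, the caller, the score, the overlap and the motif window. Counting Myh6 and Myh7 as 1 locus, and all settings for IWR-1 calls without DMSO calls, were added after seeing the data. Python 3.11.15, numpy 2.4.6, pysam 0.24.0 and matplotlib 3.10.9 were used, and both the window search and the motif search were tested on simulated data. Details of the places at Myl7 and in Myh7 are not reported here, and expression was not analysed here.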

Additional observations from a re-analysis of the deposited data

How the results depend on the processing

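Of 43 alternative values, 26 were within 1.5 times the reported count and 17 were not. Of the 26, 9 were 0 against a reported 0, for common sites with an IWR-1 QESEQ call, where a stricter setting could not change the value. With 50 kb around the body, a common DMSO site was at 3 genes (52.1% of all genes), with 3 sites, a DMSO call at 8 (80.9%), a call in the second MACS list at 4 (41.5%), and an IWR-1 QESEQ call and no DMSO call at 1 (4.75%). At 20 kb, 3 of the 10 genes had a DMSO call, against 64.3% of all genes, and neither difference from all genes was tested. An IWR-1 QESEQ call was at 6 genes with 20 kb (47.2% of all genes), 6 with 50 kb (64.7%) and 4 with 10 kb (37.6%). In 20 kb around the transcript start, such a call was at 5 genes (33.3% of all genes). With 10 kb the count of IWR-1 QESEQ and no DMSO calls was 2. With 20 kb around the transcript start, the second MACS list had a call at 1 gene (17.1% of all genes). When a peak had to be nearer to the gene than to any other protein-coding gene, a DMSO call was at 1 gene (45.5% of all genes), an IWR-1 QESEQ call at 3 (31.5%) and a call in the second MACS list at 1 (17.5%), since the peaks of Tnni3 and Nppa, among others, lay nearer to Syt5 and Nppb. Counting Myh6 and Myh7 as 1 locus, a choice made after seeing the data, also gave 1 for that list. Common sites at or above the median score numbered 0, at 0 genes, and those without a run of 7 A numbered 0. Counting all DMSO MACS peaks gave 4 and all DMSO QESEQ peaks 3. In the whole Actc1 site 2 of the searched sequences matched, against 1, the run of A, in the central 200 bp. The Actc1 site had 0 IWR-1 calls in either list, and 0 within 500 bp. Windows differ in the length searched. The cause of the other differences was not tested. Depth per peak is unknown, and with 1 common site these counts rest on single calls.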

Other observations

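The 27 genes of the comparison lists with a common DMSO site had 38 distinct sites, of which 23 had a score above that of the Actc1 site and 15 below it. For each list, the genes whose best site scored highest are named here. Among other cardiomyocyte genes these were in intron 7 of Ldb3, a Z-disc protein, with a score of 74.3, in intron 1 of Ryr2, the calcium release channel, with 68.2, and over exon 1 of Ankrd1 with 68.1. The Ldb3 site was called in both IWR-1 lists, and the Ryr2 and Ankrd1 sites in neither. Among skeletal paralogues, Myh1 and Myh2 shared a site in Myh2 with a score of 76.9, called by QESEQ with IWR-1, and Actn3 had 70.5, with a call in the second MACS list alone of the IWR-1 lists. Among smooth and non-muscle paralogues the highest were at Actn1 with 84.5, Actb with 81.7 and Actn4 with 71.8. Of these, the Actn1 site was called in the second MACS list, the Actn4 site by QESEQ with IWR-1, and the Actb site in neither. Among transcription factors they were at Tbx5, Myocd and Tbx20, and QESEQ called all 3 of these sites with IWR-1. The second MACS list also called the Tbx5 and Myocd sites, and it did not call the Tbx20 site.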
